A study of Mus musculus with 78 samples.

Results

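Rab GTPases are the largest branch of the Ras superfamily of small GTP-binding proteins, and the genes described here are the mouse protein-coding genes whose symbol is Rab followed by digits and at most 1 letter. The mouse annotation holds 59 such genes. Of these, 54 were listed in at least 1 of the gene tables, among 16956 genes in all, and 49 were listed for both stages, among 13604. Rab33a and Rab36 were listed at the 4-cell stage alone. Rab7b, Rab3c and Rab44 were listed at the 8-cell stage alone, and Rab15, Rab25, Rab27b, Rab37 and Rab9b were in neither table.

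A Rab protein switches between a GTP-bound form on a membrane and a GDP-bound form that a carrier protein can extract into the cytosol. Exchange factors load it with GTP, GTPase-activating proteins end the signal, and effectors that bind the GTP form tether, move or fuse the vesicle. Each organelle carries its own set of Rab proteins, so the members are ordered below by the transport step in which they are known to act. In the cleaving embryo membrane traffic serves the uptake and breakdown of maternal material and the supply of new surface at each division.

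The libraries are full-length Smart-seq2 libraries of single blastomeres, with 24 blastomeres from 4-cell embryos and 26 from 8-cell embryos in the tables. The embryos came from a cross of a line with the allele Gt(ROSA)26Sortm1(CAG-Brainbow2.1)Cle to a line with the transgene Tg(CAG-cre/Esr1*)5Amc, so that both stages carried 1 copy of the Brainbow lineage cassette and 1 copy of a tamoxifen-inducible Cre, each driven by the broadly active CAG promoter. All of them were exposed to 4-Hydroxytamoxifen in culture after collection as 2-cell embryos at 46 hours after hormone injection, and grown in KSOM medium, and no untreated or transgene-free blastomere was analysed here. The mothers were adult superovulated females. The labels place 24 4-cell blastomeres of 6 embryos and 26 8-cell blastomeres of 4 embryos in a lineage. These are the numbers of columns in the tables, so the columns may have been selected for a resolved lineage. However, 5 columns of the 8-cell table are named NA, and the labels leave 5 8-cell blastomeres without a lineage. No column name matches a single blastomere in the labels, and the order and depth of the columns were not used to guess a match. Blastomeres of 1 embryo may therefore share a deviation that is not accounted for here. Each stage was therefore treated as 1 sample, the blastomeres were not used as replicates, and no difference between stages has a test, an SD or a p-value.

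Values are FPKM, fragments scaled to gene length and to the total of the library, which allows levels to be compared between genes of different length. A gene was called expressed above an FPKM of 1. The totals behind the values were 6.87 M to 16.9 M fragments (M, mega) in a 4-cell blastomere and 2.34 M to 21.7 M in an 8-cell blastomere, and an FPKM of 1 on a Rab gene of median exon length stood for 15.4 to 37.9 and for 5.25 to 48.9 fragments. Each stage held 3 blastomeres with fewer than 5000 expressed genes, called gene-poor here. All 10 markers of the cleavage-stage embryo, such as Dppa3 and Nlrp5, had means above 1 at both stages, and their summed FPKM ran from 1412 to 5429 in the 4-cell and from 3032 to 10679 in the 8-cell blastomeres. Of 12 markers of cumulus and granulosa cells, 5 and 4 were listed and only Nr5a2, which the embryo itself expresses, had a mean above 1. Of 6 blood markers 3 were listed, only Cd68 had a mean above 1, and the median summed level was 0 at each stage.

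The coding sequence shows what the family members share and how the leading members differ. Rab proteins bind the nucleotide with a loop that starts with a glycine and ends with glycine, lysine and serine or threonine. This pattern was found by translating the longest curated RefSeq coding sequence of GRCm38.p6, and 52 of the 54 listed genes held it, all but Rab40b and Rab40c. The stretches below are the coding strand of the 8 loop codons of the 7 genes with the highest levels and of the 3 genes that were lower at the 8-cell stage, with the conserved codons in capitals.
Rab20: GGGgacatgaacgtgGGTAAAACG
Rab7: GGGgactctggtgttGGAAAGACC
Rab11a: GGAgattctggtgttGGAAAGAGT
Rab5a: GGAgagtctgctgttGGCAAATCA
Rab1a: GGCgattctggggttGGAAAGTCC
Rab1b: GGTgactccggcgtgGGCAAGTCG
Rab8a: GGGgactcgggggtaGGGAAGACC
Rab19: GGGgactccaacgtgGGGAAGACA
Rab3d: GGGaacagcagcgtgGGCAAGACA
Rab12: GGCtcccgcggcgtgGGCAAGACC
The loop of Rab20 starts at codon 12 and lies within 1 exon at chr8:11478443-11478466 on the minus strand. That of Rab7 starts at codon 15 and is split by an intron, between chr6:88012421 and chr6:88013648 on the minus strand. The loops of Rab1a (chr11:20215658-20215681, plus strand) and Rab1b (chr19:5105199-5105222, minus strand) start at codons 18 and 15.

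A Rab protein reaches its membrane through lipid groups that are attached to cysteines at its very end. The last 6 codons before the stop are shown for the same genes, with the cysteine codons in capitals.
Rab20: agatccgggTGTTGTgcc
Rab7: gcagaaagcTGCagtTGT
Rab11a: cagTGCTGTcagaacatc
Rab5a: agccagTGTTGTagtaac
Rab1a: tcaggtggaggcTGCTGC
Rab1b: gctagcggtggcTGCTGC
Rab8a: ttccggTGCagtctcctg
Rab19: agcacccgcTGTactTGT
Rab3d: ccgagcagcTGCagcTGT
Rab12: ccacacgtccgaTGCTGT
Over the 54 listed genes, 14 ended in a pair of cysteines, as Rab1a, Rab1b and Rab12 did. Another 18 ended in cysteine, any residue and cysteine, as Rab7, Rab19 and Rab3d did. Adjacent cysteines set back from the end were found in 13 genes, among them Rab20, Rab11a and Rab5a, and a single cysteine in 9, among them Rab8a. The proteins were 194 to 973 codons long, with Rab44 the longest. The end of Rab20 lies at chr8:11454000-11454017, that of Rab11a at chr9:64716852-64716869 and that of Rab8a at chr8:72180117-72180134, the first and second on the minus and the last on the plus strand.

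Rab20, a Rab protein of endosomes and of maturing phagosomes, had the highest level of the family at both stages. Its FPKM in 4-cell blastomeres spanned 117 to 832 (median 337, mean 363). In 8-cell blastomeres it spanned 71.2 to 534 (median 228, mean 233). It exceeded an FPKM of 1 in all 24 and all 26 blastomeres. It was the highest Rab gene in 23 of the 24 4-cell blastomeres and in 20 of the 26 8-cell blastomeres. On average it made up 30.9% of the summed Rab FPKM of a 4-cell blastomere and 21.7% of that of an 8-cell blastomere. The stage ranges overlapped over most of their width.

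The difference of mean log2(FPKM + 1) for Rab20, 8-cell minus 4-cell, was -0.61. It was -0.67 to -0.54 when single blastomeres were left out and -0.63 to -0.50 over the other processing alternatives. All these values are short of the 2-fold difference, or 1 on the log2 scale, that served as the limit for naming a stage change here. The blastomere of the 4-cell stage that Rab20 did not lead had Rab11a at 251 and Rab20 at 117. At the 8-cell stage Rab7 led 3 blastomeres, at 244, 184.8 and 177 against a Rab20 of 157, 146 and 139. Rab11a, Rab8a and Rab5a led 1 each, and those led by Rab11a and Rab8a were gene-poor. Rab20 lies at chr8:11453390-11478640 on the minus strand, and 313 of its exonic bases overlap E230013L22Rik on the other strand. This kind of library does not keep strand, so reads in the overlap cannot be assigned to either. The mean FPKM of E230013L22Rik was 5.31 and 2.33.

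**Figure D1:**
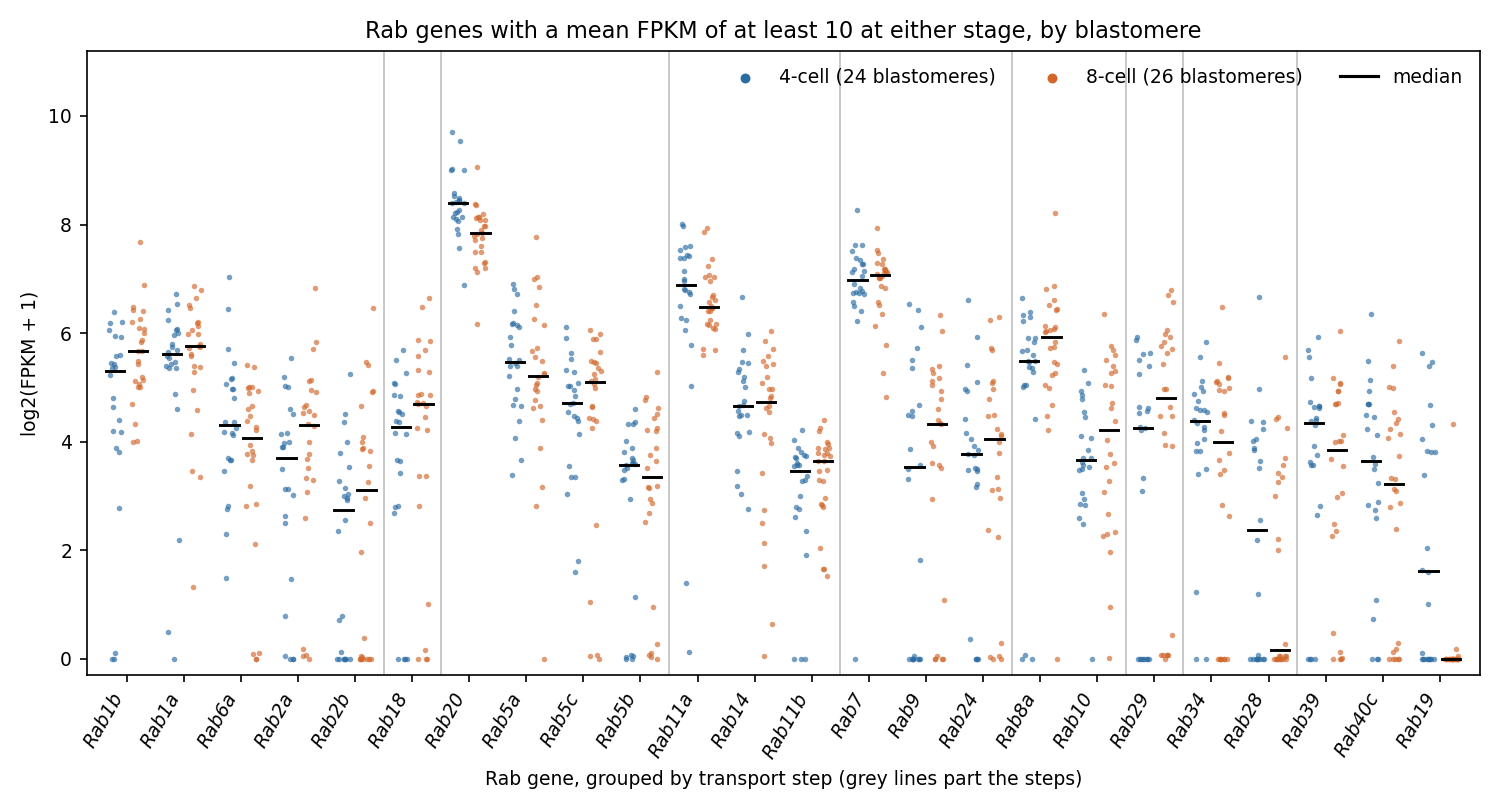
Level of the 24 Rab genes with a mean FPKM of at least 10 at either stage, as log2(FPKM + 1), with 1 point per blastomere (4-cell blue, 8-cell orange) and a black bar at the median. Grey lines part the transport steps, in the order ER to Golgi, ER and lipid droplets, early endosome, recycling endosome, late endosome and lysosome, secretory vesicles, lysosome-related organelles, cilium, and other. Rab20 stands highest, with Rab7 and Rab11a next, while genes such as Rab29 and Rab9 have blastomeres at 0 beside others at high levels.

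Among the early-endosome genes Rab20 held 79.3% of the summed 4-cell means and 69.4% of the summed 8-cell means, and Rab5a came next. Rab5a, which drives the fusion of early endosomes, had FPKM values of 9.52 to 118 with a median of 43.4 at the 4-cell stage. The 8-cell values were 0 to 217 with a median of 36.2, and the value of 0 was in the blastomere with 2.34 M fragments. The means were 51.1 and 52.8, but 42.4 and 51.2 without the gene-poor blastomeres. Rab5a was above 1 in 24 of 24 and 25 of 26 blastomeres.

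Rab5c, a paralogue with the same known role, had means of 26.8 and 30.9. Its medians were 25.2 and 33.1, in ranges of 2.04 to 68 and 0 to 65.2. Rab5b was lower, at 9.90 and 11.8. Rab5a held 58.2% and 55.2% of the summed Rab5 means, but was the highest of the 3 in 18 of 24 and only 14 of 26 blastomeres. At the 8-cell stage Rab5c exceeded Rab5a in 10 of 26 blastomeres.

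The other early-endosome genes stood much lower. Rab22a and Rab31, which act between early endosomes and the trans-Golgi network, had 4-cell means of 3.08 and 2.44 and 8-cell means of 3.13 and 3.80. The higher mean passed from Rab22a to Rab31. In 3 of 24 and 3 of 26 blastomeres both were above 1, while 12 and 13 blastomeres had only 1 of the pair above 1. Rab21, which follows integrins into endosomes, was above 1 in 6 of 24 and 2 of 26 blastomeres, with means of 1.56 and 0.37.

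Rab11a led the recycling-endosome genes. It returns receptors and membrane from the recycling compartment to the cell surface. At the 4-cell stage its FPKM was 0.089 to 258 with a median of 117, and at the 8-cell stage 47.6 to 243 with a median of 88.3. The means were 124 and 104, and the log2 difference was 0.17 but -0.46 without the gene-poor blastomeres. The low 4-cell value was in the blastomere with 3009 expressed genes, and all 26 8-cell blastomeres were above 1. Rab11a held 71.6% and 67.1% of the summed means of its step and was its highest gene in 20 of 24 and 26 of 26 blastomeres.

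Within its own subfamily Rab11a had 93.4% and 90.8% of the summed means and exceeded Rab11b in every blastomere. Rab11b had means of 8.76 and 10.5. It exceeded 1 in 21 of 24 and 26 of 26 blastomeres. Rab25, the epithelial member of the subfamily, was not listed at either stage.

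Rab14, which works between the Golgi and recycling endosomes, had means of 30 and 26.0. Its FPKM was 5.75 to 100.4 and then 0.042 to 64.9, with medians of 24.3 and 25.7. It was above 1 in all 24 4-cell blastomeres and in 24 of 26 8-cell blastomeres. The Rab4 pair, which serves fast recycling, was low. Rab4b had means of 3.69 and 3.16 and Rab4a of 1.17 and 2.52, and Rab4a was above 1 in 2 of 24 and 4 of 26 blastomeres. Without the gene-poor blastomeres the means of Rab4a were 0.20 and 2.85. Rab17, known from polarised epithelia, was above 1 in 0 of 24 4-cell blastomeres and in 3 of 26 at the 8-cell stage. The count of 0 allows a share of up to 12.5% as 3 counts in 24 (14.2% by the exact binomial interval). Both limits cover counting error only, and blastomeres of an embryo are not independent.

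Rab7 dominated the late-endosome, lysosome and autophagy genes. It governs the passage from late endosomes to lysosomes. Its FPKM was 0 to 308 with a median of 125 at the 4-cell stage, and 27.3 to 244 with a median of 133 at the 8-cell stage. The means were 132 and 125 and the log2 difference was 0.10. Rab7 held 76.6% and 74.5% of the summed means of the step and was its highest gene in 23 of 24 and 24 of 26 blastomeres. The only blastomere without Rab7 was the 4-cell blastomere with 3009 expressed genes.

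Rab9, which serves the return from late endosomes to the Golgi, was next at 21.5 and 21.9. It was above 1 in 15 of 24 4-cell and 21 of 26 8-cell blastomeres, the largest gain in the share of blastomeres among the 49 genes, at 18.3 percentage points. Its median moved from 10.6 to 19.1 while its mean stayed near 22. Rab24, linked to autophagy, had means of 18.9 and 20.7 and was above 1 in 19 of 24 and 21 of 26. Rab7b, the second gene of the Rab7 name, was listed at the 8-cell stage only, where a single blastomere had an FPKM of 4.06.

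In transport from the endoplasmic reticulum (ER) to the Golgi and within it, the paralogues Rab1a and Rab1b were close. Both are needed for vesicles to leave the ER and reach the Golgi. Rab1a had FPKM values of 0 to 104 (median 48.2, mean 48.9) at the 4-cell stage and 1.49 to 116 (median 53.0, mean 54.6) at the 8-cell stage. Rab1b had 0 to 82.7 (median 38.4, mean 35.3) and then 14.9 to 203 (median 49.8, mean 57.5). At the 4-cell stage Rab1a held 58.0% of the pair's summed means. Later Rab1b held 51.3%.

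That change of order at the 8-cell stage did not hold by blastomere. Rab1a exceeded Rab1b in 15 of 26 8-cell blastomeres, it had the higher median, and without the gene-poor blastomeres its mean was the higher one, 58.8 against 56.3. Both genes were above 1 in 20 of 24 4-cell blastomeres and in all 26 8-cell blastomeres. Their coding sequences were 77.6% identical over 606 aligned bases. The longest run they shared is shown because it is the longest between any of the paralogue pairs compared, and it is shorter than a read of 100 bases.
Shared run: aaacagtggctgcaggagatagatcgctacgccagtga
It lies at chr11:20224385-20224422 in Rab1a and at chr19:5100743-5100780 in Rab1b. Reads of full length could therefore be told apart by at least 1 base between these paralogues.

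Rab1b was the only Rab gene that was at least 2-fold higher at the 8-cell stage. Its difference of mean log2(FPKM + 1) was 1.14. Without the gene-poor blastomeres it was 0.74, and it was 0.94, 0.94 and 0.95 when any of 3 4-cell blastomeres with Rab1b at most at 0.079 was left out, those with 3009, 3699 and 7131 expressed genes. With the median in place of the mean it was 0.37. The share above 1 was 21 of 24 and then 26 of 26 blastomeres.

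The other Golgi genes had lower levels. Rab6a, the main Rab protein of the Golgi stack, had means of 27.9 and 17.2 and medians of 18.8 and 15.9, and was above 1 in 24 of 24 and 22 of 26 blastomeres. It held 99.7% and 96.5% of the summed Rab6 means, since Rab6b was above 1 in 1 of 24 and 3 of 26. The log2 difference of Rab6a was -0.78 but -0.29 without the gene-poor blastomeres. Its exons overlap those of Mrpl48 on the other strand over 440 bases, and Mrpl48 had means of 41.3 and 60.1. Rab2a, which acts between the ER and the Golgi, had means of 13.6 and 22.3, and Rab2b had 7.15 and 13.9. Without the gene-poor blastomeres the means were 15.5 and 18.9 for Rab2a and 7.75 and 10.6 for Rab2b. Rab2a was the higher of the pair in 17 of 24 and 17 of 26 blastomeres. Rab43, Rab33b and Rab30, also Golgi genes, had means of at most 2.47 at either stage.

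Rab18, which sits on the ER and on lipid droplets, had FPKM values of 0 to 50.8 (median 18.3) in 4-cell and of 0 to 98.6 (median 25.1) in 8-cell blastomeres. Its means were 18.5 and 28.6. The gene exceeded 1 in 20 of 24 and 22 of 26 blastomeres.

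Rab8a led the genes of secretory vesicles and the plasma membrane. It directs exocytic vesicles to the surface. Its FPKM was 0 to 99.6 (median 43.6) in 4-cell and 0 to 294 (median 59.9) in 8-cell blastomeres. The means were 45.9 and 66.3, and the log2 difference was 0.69 but 0.10 without the gene-poor blastomeres. The highest value was in the gene-poor 8-cell blastomere with 4263 expressed genes. Rab8a held 97.7% and 99.1% of the summed Rab8 means, and Rab8b was above 1 in only 4 of 24 and 3 of 26 blastomeres.

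Rab10, which delivers transporters to the plasma membrane, was the second gene of the step at 14.9 and 23.5, and was above 1 in 23 of 24 and 24 of 26 blastomeres. The Rab3 genes of regulated exocytosis were low and unevenly spread. Rab3a had means of 5.00 and 3.10 and Rab3b of 2.28 and 2.85. Without the gene-poor blastomeres the means of Rab3b were 2.60 and 1.66, so the order of the stages turned. Rab3d had a mean of 3.75 at the 4-cell stage, and there its median of 2.93 was above the 0.48 of Rab3a. Rab3c was listed only at the 8-cell stage and at most at 0.0077. Rab27a, of secretory lysosomes, had means of 1.92 and 2.10.

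Of the genes of lysosome-related organelles, Rab29 stood first with 81.3% and 88.5% of the summed means. Rab29 is known for its link to the kinase LRRK2 at the Golgi and lysosome. It was 0 to 59.6 (median 18.1) in 4-cell and 0 to 109 (median 27.1) in 8-cell blastomeres, and was above 1 in 16 of 24 and 19 of 26 blastomeres. Its means were 20.8 and 35.3, with a log2 difference of 0.75. Rab38, a gene of melanosome formation, had means of 3.96 and 4.29 from a few blastomeres. Those above 1 were 6 at the 4-cell stage, with a median of 9.53 and a highest value of 50.3, and 7 at the 8-cell stage, with a median of 13.9 and a highest value of 33.1. Rab32 was above 1 in 2 blastomeres at each stage.

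Cilium genes were also present at both stages. Rab34, which starts the ciliary membrane, had medians of 19.7 and 15.1 and means of 20.7 and 19.6. It exceeded 1 in 22 of 24 and 19 of 26 blastomeres. Rab28 had means of 11.6 and 6.53 and medians of 4.24 and 0.13, and its 4-cell values ran from 0 to 100.5. Its difference was -0.55 by the mean of log2 values and -2.21 by their median. Rab23, a regulator of Hedgehog signalling, differed by -0.78 and by -1.22 in the same order, and was above 1 in 13 of 24 and 8 of 26 blastomeres. In those blastomeres its median was 5.65 and 5.62.

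Among genes with a less settled place, Rab39 and Rab40c had like levels. Rab39 had means of 19.3 and 15.8 and Rab40c, which joins a ubiquitin ligase, of 17 and 12.9. Rab39b reached at most 0.70, while Rab40b reached 22.4 in the 4-cell and 8.21 in the 8-cell blastomeres.

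**Figure D2:**
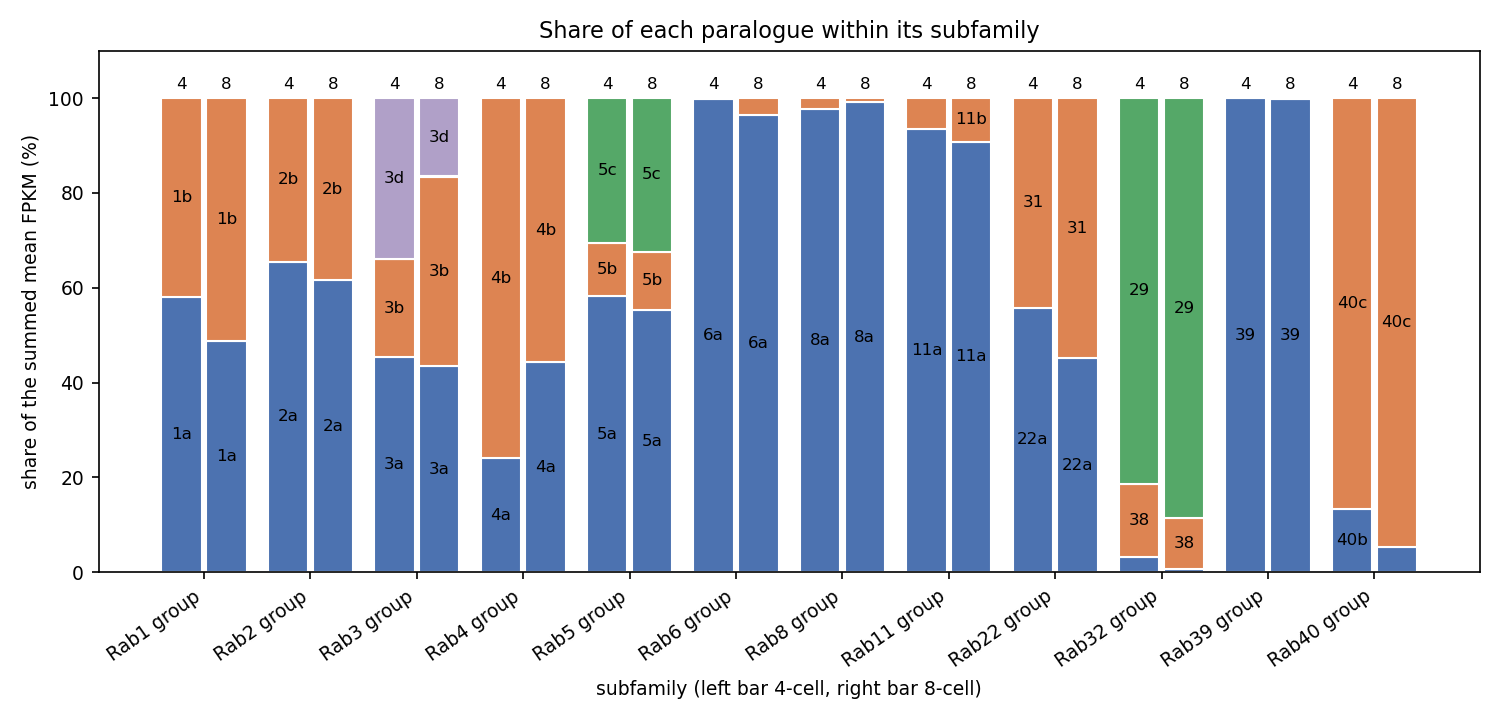
Share of each paralogue in the summed mean FPKM of its subfamily, in percent, for 12 subfamilies, with the left bar of each pair the 4-cell and the right bar the 8-cell stage. Numbers in the bars name the gene. One paralogue holds over 90% in the Rab6, Rab8, Rab11 and Rab39 groups at both stages, while the Rab1 and Rab22 groups change their leader by the mean.

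In 10 of the 12 subfamilies with at least 2 members listed at each stage the same paralogue led at both stages. The exceptions were Rab1 and Rab22. Without the 5 columns named NA it was 9, since Rab4a then led Rab4b at the 8-cell stage, and without the gene-poor blastomeres 11. By the median it was 9, where all Rab3 and Rab4 medians at the 8-cell stage were 0 and gave no order. The lead was clear in single blastomeres for Rab11a, Rab6a (24 of 24 and 22 of 26 blastomeres) and Rab8a (21 of 24 and 25 of 26). It was not for Rab3a, which was the highest Rab3 gene in 7 of 24 and 6 of 26. Of the 9 groups by transport step, 8 kept the leader by the mean, and by the median all 9 did. One of these groups holds only Rab18.

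Some transcripts also have exact copies elsewhere in the genome, and only uniquely aligned reads were kept in these data. Of the 100-base windows of the longest curated transcript, 36% of Rab5b, 27.2% of Rab5a, 18.6% of Rab7 and 18.4% of Rab11b had an exact copy outside the gene in GRCm38.p6. Rab14, Rab2a, Rab8b, Rab10, Rab1a, Rab33b and Rab3c had between 1.30% and 5.37%, and the other members none. The annotation holds the pseudogenes Rab5a-ps, Rab7-ps1, Rab11b-ps1 and Rab11b-ps2. The levels of these genes were not corrected for such windows, and no window of Rab20 or Rab11a was affected.

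Few Rab genes differed by 2-fold between the stages. On the scale of mean log2(FPKM + 1), 1 of the 49 genes (2.04%) was at least 2-fold higher at the 8-cell stage, where 4.56% of all 13604 genes were. At least 2-fold lower were 3 of the 49 (6.12%), where 6.76% of all genes were. The median difference was -0.10 over the Rab genes and -0.04 over all genes. The difference was above 0 for 24 genes and below 0 for 25. Its sign differed, however, for 12 of the 49 among the processing alternatives other than leaving out single blastomeres. Rab5a, Rab5b, Rab5c, Rab7, Rab11a and Rab14 were among these 12.

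Rab19, a less studied Rab protein with reported roles near the Golgi and the cilium, showed the largest difference by the mean. By the median it was -1.62, smaller in size than the -2.21 of Rab28 and the -1.96 of Rab3d. At the 4-cell stage its FPKM was 0 to 48.7 (median 2.07, mean 10.4). In the 8-cell blastomeres the median was 0 and the mean 0.74, and a single blastomere had 19. The difference was -1.94. The share above 1 was 14 of 24 (58.3%, exact binomial interval 36.6% to 77.9%) and then 1 of 26 (3.85%, 0.097% to 19.6%). In the 14 blastomeres above 1 the median was 13.2. These intervals, like those that follow, cover counting error only, and blastomeres of an embryo are not independent.

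Rab3d, a gene of secretory granules, had 4-cell values of 0 to 19.8 with a median of 2.93. The 8-cell values were 0 to 19.4 with a median of 0, and the means were 3.75 and 1.18. The difference was -1.20. It was above 1 in 15 of 24 blastomeres (62.5%, 40.6% to 81.2%) and in 5 of 26 (19.2%, 6.55% to 39.4%).

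Rab12, which moves cargo from recycling endosomes to lysosomes, had 4-cell values of 0 to 12.5 (median 0.36, mean 2.59). The highest 8-cell value was 0.64, with a mean of 0.073. The difference was -1.06, and leaving out any 1 of 6 4-cell blastomeres that expressed it gave -0.99 to -0.95. With the median in place of the mean it was -0.44. It was above 1 in 8 of 24 blastomeres (33.3%, 15.6% to 55.3%) and in 0 of 26, which allows a share of up to 11.5% as 3 counts in 26 (13.2% by the exact binomial interval). Rab43 lay just short of the limit at -0.92, with 11 of 24 and 3 of 26 blastomeres above 1, and was at -1.06 without the gene-poor blastomeres. These 4 genes were spread over single blastomeres at the 4-cell stage rather than present in all of them.

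**Figure D3:**
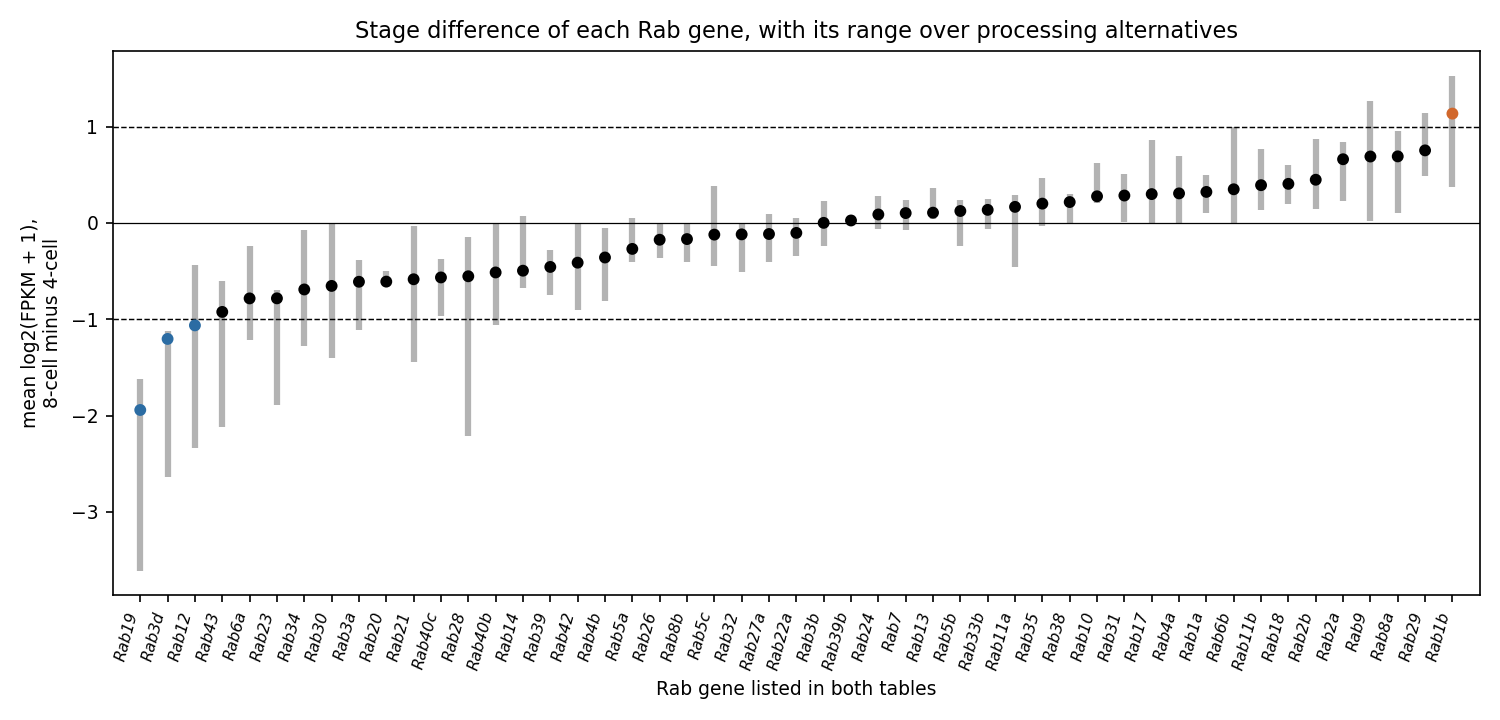
Difference of mean log2(FPKM + 1), 8-cell minus 4-cell, for the 49 Rab genes listed at both stages, sorted. Points are the values reported, grey bars the range over the processing alternatives other than leaving out single blastomeres, and dashed lines a 2-fold difference. Rab19, Rab3d and Rab12 lie below the lower line and Rab1b above the upper one, and of these the bars of Rab1b and Rab12 cross their line.

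The share of blastomeres above 1 was lower at the 8-cell stage for 29 of the 49 genes (59.2%), higher for 18 (36.7%) and equal for 2. Over all 13604 genes it was lower for 52.1% and higher for 36.8%, and no test stands behind these counts. At the 4-cell stage 5 of 51 listed genes were above 1 in every blastomere, namely Rab14, Rab20, Rab5a, Rab5c and Rab6a. At the 8-cell stage 6 of 52 were, namely Rab11a, Rab11b, Rab1a, Rab1b, Rab20 and Rab7, so that Rab20 alone was on both lists. However, gene-poor blastomeres alone kept Rab7 and Rab11a off the 4-cell list and Rab5a and Rab14 off the 8-cell list. The other genes on a single list, such as Rab5c and Rab1a, were also at most at 1 in a blastomere that was not gene-poor. A further 22 and 17 genes (43.1% and 32.7%) were above 1 in at least 50% of blastomeres, where 36.3% and 29.8% of all listed genes were. In fewer blastomeres were 21 and 25 genes (41.2% and 48.1%), against 44.0% and 43.8% of all genes, and 3 and 4 were above 1 in none. Over all listed genes, 8.88% and 11.4% were above 1 in every blastomere and 10.8% and 15% in none, against 9.80% and 11.5%, and 5.88% and 7.69%, of the Rab genes.

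**Figure D4:**
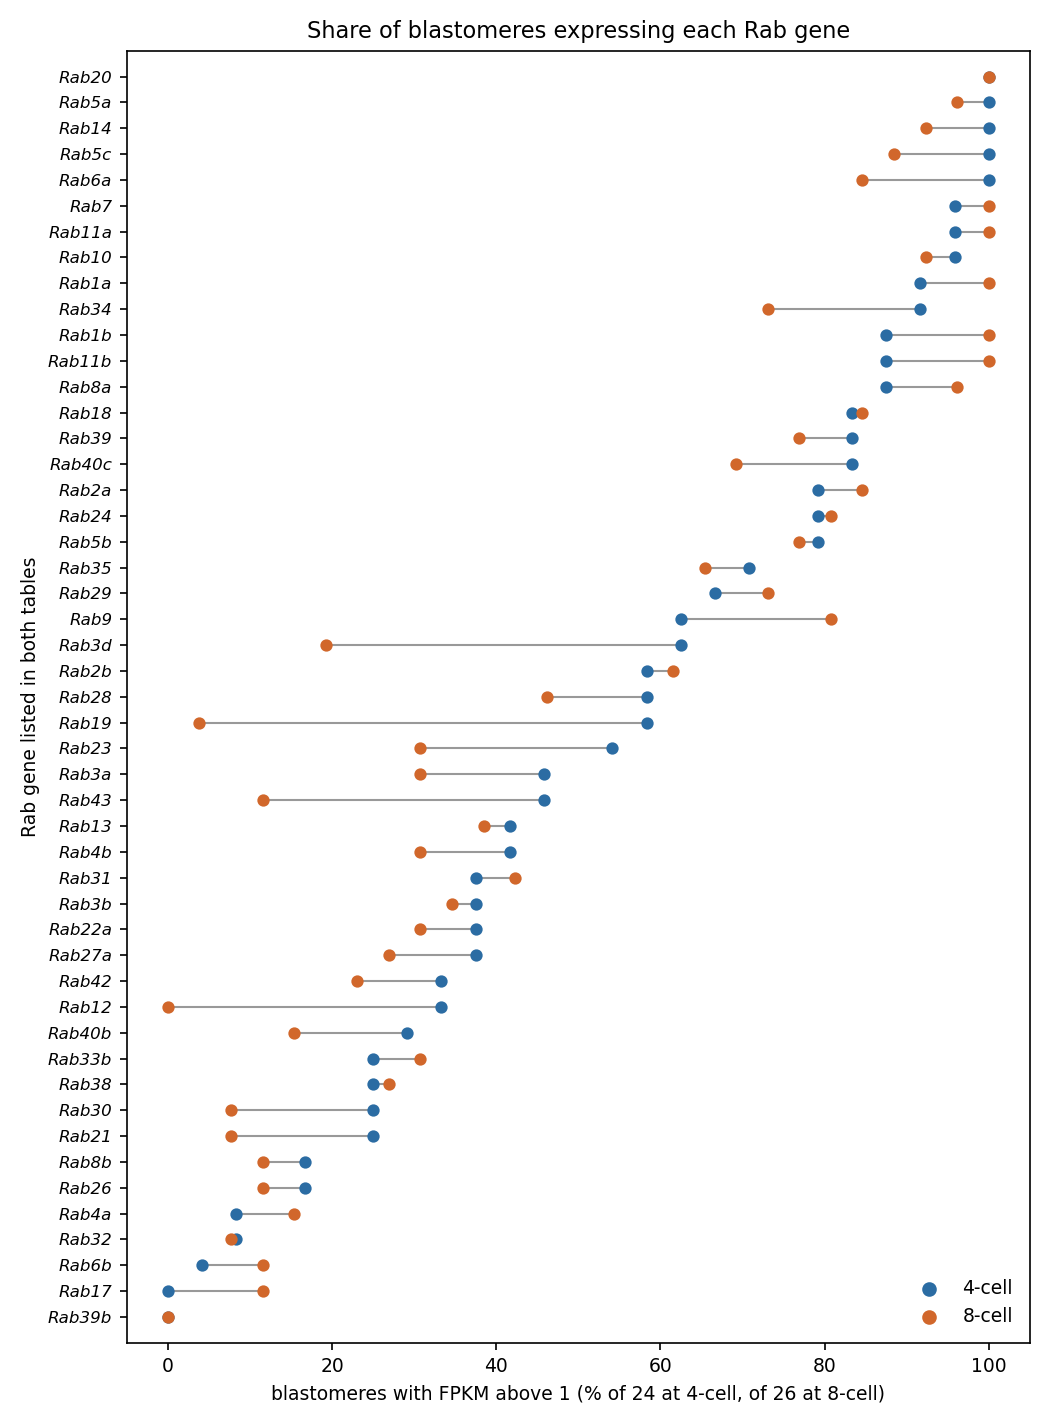
Share of blastomeres with an FPKM above 1, in percent of 24 at the 4-cell (blue) and of 26 at the 8-cell stage (orange), for the 49 Rab genes listed at both stages. The longest lines belong to Rab19, Rab3d, Rab43 and Rab12, whose orange points lie at 3.85%, 19.2%, 11.5% and 0%.

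A 4-cell blastomere expressed 7 to 36 Rab genes with a median of 30.5, and an 8-cell blastomere 12 to 35 with a median of 25.5. Without the gene-poor blastomeres the ranges were 21 to 36 and 19 to 35, with medians of 31 and 26. Over all listed genes, 3009 to 8276 were above 1 in a 4-cell and 3548 to 8078 in an 8-cell blastomere. Over every blastomere, both ends of this range moved between the stages in the same direction as those of the Rab genes. Whether the lower median is particular to Rab genes was not tested. The number of Rab genes was lowest in the blastomeres with the fewest expressed genes of any kind. The 4-cell blastomere with 3009 expressed genes had 7 Rab genes above 1 and lacked Rab7, Rab11a, Rab1a, Rab1b and Rab8a above 1, while its Rab20 was at 348. The blastomere with 3699 had 12. The 8-cell blastomere with 3548 expressed genes and 2.34 M fragments had 12, and lacked Rab5a, Rab5c and Rab8a. The part of depth in these absences was not tested.

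The summed Rab FPKM was 694 to 1633 at the 4-cell stage with a median of 1146, and 748 to 1454 at the 8-cell stage with a median of 1032. It made up a median of 0.27% and 0.26% of all FPKM. By the mean the sum was 1159 and 1062, and the share 0.273% and 0.249%. The sum was thus slightly lower at the 8-cell stage by the median and by the mean. The average contribution of Rab20 to it, 30.9% and then 21.7%, was lower as well.

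**Figure D5:**
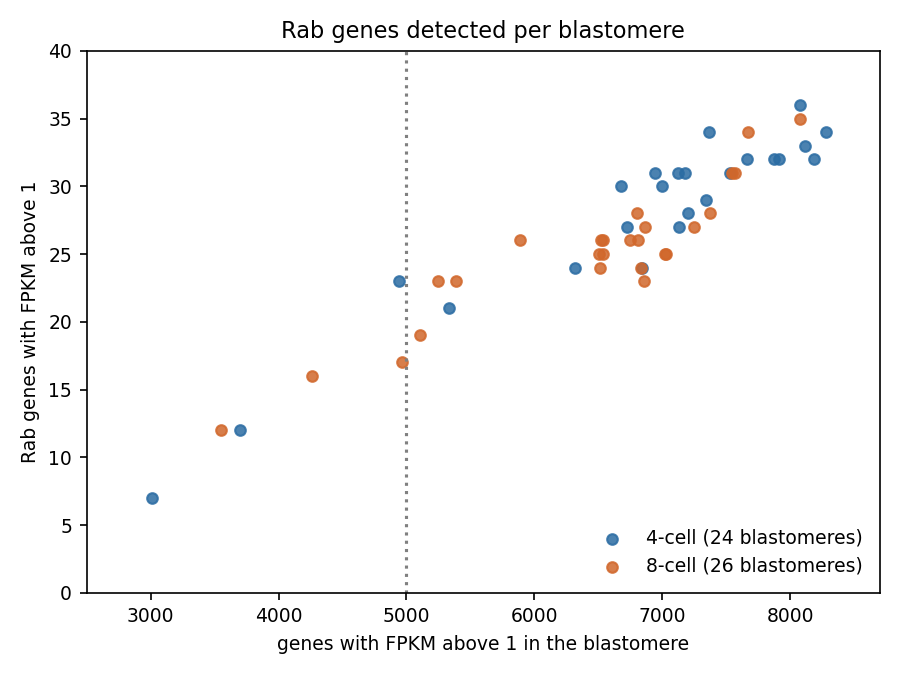
Number of Rab genes above an FPKM of 1 against the number of all listed genes above 1, with 1 point per blastomere (4-cell blue, 8-cell orange). The dotted line marks 5000 genes, and the 6 blastomeres to its left had 7 to 23 Rab genes.

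The genes that act on Rab proteins were taken from 4 lists, whose counts stand beside the same 4.56% and 6.76% of all genes. All 7 genes of prenylation and membrane extraction, which attach the lipids and shuttle the proteins, lay within 2-fold between the stages. Among 41 exchange factors 1 was at least 2-fold higher and 6 were lower at the 8-cell stage. Trappc2, a subunit of the TRAPP tether that activates Rab1, had a mean of 4.26 and then 10.7, with a log2 difference of 1.0. Rabgef1, the exchange factor of Rab5, was 7.06 to 160 with a median of 33.1 and then 0 to 85.4 with a median of 14.9, and differed by -1.32. Dennd2a had means of 6.86 and 1.5 and differed by -1.64, and Dennd5a had 6.68 and 2.54 and differed by -1.18. Rab5a, Rab5b and Rab5c themselves differed by -0.27, 0.12 and -0.12.

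Of 36 GTPase-activating proteins none was 2-fold higher and 2 (5.56%) were lower. Tbc1d25, which acts on Rab33b, had means of 21.4 and 7.54 and differed by -1.84, and Evi5, linked to Rab11, had 25.2 and 11.7 and differed by -1.14. Of 51 effectors 7 (13.7%) were higher and 2 (3.92%) lower. Vps41, a subunit of the HOPS tether that works with Rab7, had medians of 18.4 and 38.5 and differed by 1.46. Exoc6, an exocyst subunit, had means of 3.05 and 9.43 and differed by 1.42. Its 4-cell median was 0, and it was above 1 in 8 of 24 and 19 of 26 blastomeres. Vps33b, a tether of late endosomes, had means of 10.6 and 18.5 and differed by 1.30. Rilpl2, which binds Rab8 and Rab10 and controls ciliary content, showed the largest difference of the lists at -2.96. Its median was 19.3 and then 0, and it was above 1 in 20 of 24 and 8 of 26 blastomeres. Exoc5, another exocyst subunit, differed by -1.01. The medians over the 4 lists were between -0.12 and -0.02, where that over all genes was -0.04.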

How the data were processed

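Single blastomeres were sequenced as paired 100-nt reads. The authors aligned them with STAR 2.5.1b to mm10, kept uniquely aligned reads, counted them on Refseq genes with HTSeq and deposited FPKM values for each stage in its own table. Which gene lengths and totals they used is not given in the sources used here. The FPKM denominators were estimated from the whole-number steps of low values, and the estimate was tested on simulated data, where 20 of 20 were recovered per stage. Genes were matched by Entrez number to RefSeq GRCm38.p6, the assembly behind mm10, for 15200 of 15218 and 15320 of 15342 identifiers. Stage differences are means of log2(FPKM + 1), with a pseudocount of 1, which understates low genes. The tables were deposited separately, so levels set across them rest on the authors' scaling.

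The members and gene lists were chosen with earlier results of these data known. Named with values were the 10 highest Rab genes per stage, leaders of subfamilies and steps with their nearest paralogues, genes past 2-fold, and per pathway role at most 3 genes per direction with a stage mean of at least 5. Others named, such as Rab43, Rab9 and Rab23, were chosen after their values were seen. The 5-cell and 6-cell embryos and the repeat tables were not used here. Python 3.11.15, numpy 2.4.6, pandas 2.3.3, scipy 1.17.1 and matplotlib 3.10.9 were used.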

Additional observations from a re-analysis of the deposited data

How the results depend on the processing

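The count of 1 Rab gene at least 2-fold higher at the 8-cell stage became 3 with a pseudocount of 0.1 (Rab1b, Rab9 and Rab29) and without the 5 columns named NA. It was 0 with the log2 ratio of stage means, with the median over blastomeres and without the gene-poor blastomeres, and 5 at a limit of 1.5-fold. The count of 3 lower genes became 10 with a pseudocount of 0.1, 6 with the log2 ratio of stage means, 5 with values rescaled to a fixed sum per blastomere and 10 at a limit of 1.5-fold. It was 0 among the 24 genes above 1 in at least 25 blastomeres, a filter that Rab19, Rab3d and Rab12 do not pass. By the median 4 were lower, with Rab28 and Rab23 in place of Rab12. Over all genes the share lower was 16.6% with a pseudocount of 0.1, 8.28% with the ratio of means and 9.92% when rescaled, against 20.4%, 12.2% and 10.2% of the Rab genes. The share of all genes higher was 9.94% with that pseudocount and 4.01% without the columns named NA, against 6.12% of the Rab genes under both. Where no Rab gene was higher, 5.59% of all genes were by the ratio of means, 5.17% by the median and 4.04% without the gene-poor blastomeres. By the median 9.67% of all genes were lower, against 8.16% of the Rab genes. At a limit of 1.5-fold 11.6% of all genes were higher and 15.9% lower, against 10.2% and 20.4% of the Rab genes. Of all genes that pass the filter 10.7% were lower and 8.20% higher, against 0% and 4.17% of the 24 Rab genes. Of the 135 pathway genes 8 were higher and 10 lower. With the filter 5 of the 62 left were higher, 8.06% against 8.20% of all genes. Without the columns named NA 4 of 135 were higher, 2.96% against 4.01%. With a pseudocount of 0.1 there were 18 lower of 135, 13.3% against 16.6%. The same pseudocount moved the median over all genes from -0.04 to -0.11. Leaving out 1 blastomere at a time, chosen after seeing the data, gave 0 to 1 higher and 2 to 4 lower Rab genes, and 5 to 9 higher and 8 to 11 lower pathway genes. Rab19 and Rab3d were past the limit under each alternative that gave them a value. None of the 4 called Rab genes and none of the 18 called pathway genes changed sign under these alternatives. Under the alternatives other than leaving out 1 blastomere, the sign changed for 12 of all 49 Rab genes. Among them were Rab7, Rab11a, Rab14 and the 3 Rab5 genes. Rab13, Rab32 and Rab39b changed sign only when 1 blastomere was left out. The cause of these shifts was not examined by a test. No paired analysis was possible because no column name gives an embryo or a replicate number. In the shallowest blastomere an FPKM of 1 stood for 5.25 fragments on a Rab gene of median length, so low members were not detectable there at the same precision.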
